A study of Homo sapiens with 4 samples.

Results

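The proteasome subunit genes, examined here in the Nalm-6 line of human pre-B leukemia cells, were taken as every gene whose current symbol is PSMA, PSMB, PSMC, PSMD or PSME followed by a number. The array carried 60 probes for 42 of the 43 genes with such a symbol, out of 41000 probes in all, of which 27210 could be given a current symbol. PSMB11, the thymus-specific beta subunit, had no probe. All of 59 probes, for 41 genes, were well above background on each of the 4 arrays, and the single probe of PSMA8, the testis-specific alpha subunit, was so on 0 of the 4. The members were chosen by name and not by any measured value.

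The proteasome is the protease that degrades ubiquitin-tagged proteins in the cytosol and nucleus. Its 20S core is a barrel of alpha rings (PSMA), which gate the entrance, and beta rings (PSMB), which hold the catalytic sites. The 19S cap binds the core through a base with a ring of ATPases (PSMC) that unfold substrates, and carries a lid (PSMD) that removes ubiquitin chains. Immunoproteasomes, abundant in lymphoid cells, exchange the catalytic beta subunits for PSMB8, PSMB9 and PSMB10 and favour the release of peptides for MHC class I. Activators of the PSME family can dock on the core in place of the cap.

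RNA was hybridised from 4 cultures with 1 array each, on the same slide, namely wild type (WT), Arp5 KO, Arp8 KO and a culture labelled Arp8 overexpression (Arp8 OE). Arp5 and Arp8 are actin-related subunits of the INO80 chromatin remodelling complex, and the study asked how transcription under heme-induced oxidative stress depends on them. Both alleles of the gene were disrupted by gene targeting in Arp5 KO, and how many clones were used is not given in the sources used here. The protocol gives 20 µM heme for 12 hours, and WT and Arp8 OE are labelled as treated throughout. For the knockouts the labels conflict. The titles of both name heme and a treatment field of both says that none was given, while the source description has Arp8 KO treated and Arp5 KO untreated. A difference of a knockout from WT or Arp8 OE, or between the knockouts, therefore cannot be told apart from a difference in treatment. With 1 array per genotype there is no replicate, so no test between genotypes was possible and no p-value is given. The only error measured was technical: 264 probes printed at several places on each array gave an SD of 0.082 for a log2 difference between arrays.

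Each value is the log2 of the signal over the 75th percentile of its array, called the log2 level, so that 0 is the level of a probe at that percentile. Levels are compared between arrays for 1 probe at a time and not between probes. In RNA of a whole culture, fewer cells carrying a transcript and less transcript per cell cannot be told apart. The ACTR5 probe, for the gene of Arp5, was 19.3 times lower in Arp5 KO than in WT. The 2 ACTR8 probes, for the gene of Arp8, differed from WT by -0.53 and -0.68 in Arp8 KO and by 0.02 and -0.01 in Arp8 OE, so the array showed no higher ACTR8 level in the culture labelled Arp8 OE; where these probes lie relative to the disrupted part of the gene is not given in the sources used here. HMOX1, the heme oxygenase gene induced by heme, was lower than in WT in all of the other 3 cultures, with log2 differences of -2.05 in Arp8 OE, -2.91 in Arp8 KO and -2.98 in Arp5 KO. All 10 pre-B marker genes examined were well above background on every array, with a median log2 level between 3.44 and 3.8. Single markers differed more in Arp8 KO, where CD22 was -2.58, VPREB1 -1.26 and CD79A -0.86 from WT and DNTT 1.78 above it. DNTT was also 1.02 above WT in Arp8 OE. The part of such differences in the proteasome values was not tested. Of the other cell types, 0 of 5 T cell markers, 1 of 5 myeloid markers (CD14) and 1 of 4 erythroid markers (HBA1) were so on every array.

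The proteasome probes were, as a group, lower in all 3 other cultures than in WT. The median log2 difference of the 59 probes was -0.20 in Arp5 KO, -0.33 in Arp8 OE and -0.51 in Arp8 KO, beside medians over all tested probes of 0.00, 0.00 and 0.03. In Arp5 KO, 50 of 59 probes were below WT, against 49.3% of the 24285 probes tested in that comparison. In Arp8 OE, 55 of 59 were below WT, against 50% of 24177. In Arp8 KO, 51 of 59 were below WT, against 47.3% of 24578. Most of these shifts were small. Past 1.5-fold, 2 of 59 probes were lower in Arp5 KO (4.69% of all tested probes were), 4 in Arp8 OE (5.67%) and 21 in Arp8 KO (11.2%). The counts for Arp5 KO and Arp8 OE are thus close to these shares of all tested probes, and the count for Arp8 KO is above its share. The shares among bright probes, given below, are lower. No proteasome probe was higher than in WT past 1.5-fold in any of these comparisons, where 4.15%, 7.93% and 10% of all tested probes were. Past 2-fold lower, the count was 0 in Arp5 KO (2.01% of all tested probes), 0 in Arp8 OE (2.15%) and 1 in Arp8 KO (4.35%), and past 2-fold higher it was 0 in each (1.69%, 2.96% and 3.37%). A per-gene view gave the same direction: of 41 genes, averaged over their probes, 35 were below WT in Arp5 KO, 39 in Arp8 OE and 35 in Arp8 KO. No share over the gene means of all genes was computed, here or below.

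**Figure D1:**
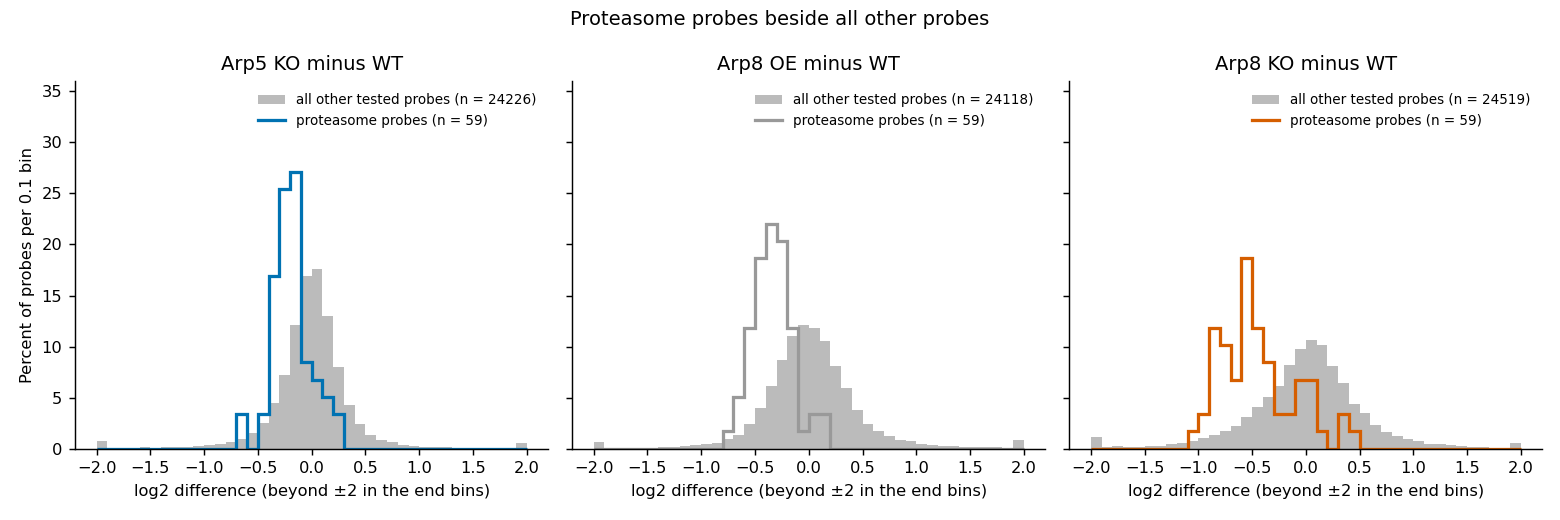
Percent of probes in each 0.1-wide bin of log2 difference from WT, for the 59 proteasome probes (coloured outline) and all other tested probes (grey fill), in Arp5 KO, Arp8 OE and Arp8 KO. The outlines lie left of the grey fill in each panel, with medians of -0.20, -0.33 and -0.51.

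The order of the 4 arrays was also much the same from probe to probe. WT was the highest array for 47 of 59 proteasome probes, against 24.5% of 25449 probes tested. Arp8 KO was the lowest for 40 of 59, against 32%, and Arp8 OE was the lowest for 17, against 24.6%. WT was the highest and Arp8 KO the lowest for 38 probes, against 13.9%. Arp5 KO was the lowest for 0 probes, against 19.2%, and WT for 2, against 24.2%. The highest array was Arp8 KO for 7 probes (32.7% of all tested), Arp5 KO for 4 (16.7%) and Arp8 OE for 1 (26.1%). The 3 differences from WT share the WT array and are not independent of each other. With Arp8 OE as the reference instead, the median of the proteasome probes was 0.16 in Arp5 KO, with 10 of 59 below 0, and -0.16 in Arp8 KO, with 41 of 59 below 0. The sign for Arp5 KO thus turned with the reference array, and that for Arp8 KO did not. Set directly against Arp5 KO, which 1 label field gives as untreated where Arp8 KO is treated, Arp8 KO had a median of -0.27 over the 59 probes, with 50 below 0 (46.9% of 24440 tested probes) and 3 lower past 1.5-fold (7.84%). In that comparison 0 were higher past 1.5-fold (6.9%), 0 lower past 2-fold (3.18%) and 0 higher past 2-fold (2.53%).

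Most proteasome probes were bright, and bright probes as a class did not show the shift. Of the 4644 probes with a mean log2 level above 2, the median difference from WT was 0.01 in Arp5 KO, 0.01 in Arp8 OE and 0.04 in Arp8 KO. The 49 proteasome probes among them had medians of -0.23, -0.32 and -0.53. In Arp8 KO, 19 of these 49 were lower past 1.5-fold, against 5.81% of the bright probes. The same counts were 2 of 49 in Arp5 KO, against 0.60% of the bright probes, and 3 of 49 in Arp8 OE, against 1.70%.

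**Figure D2:**
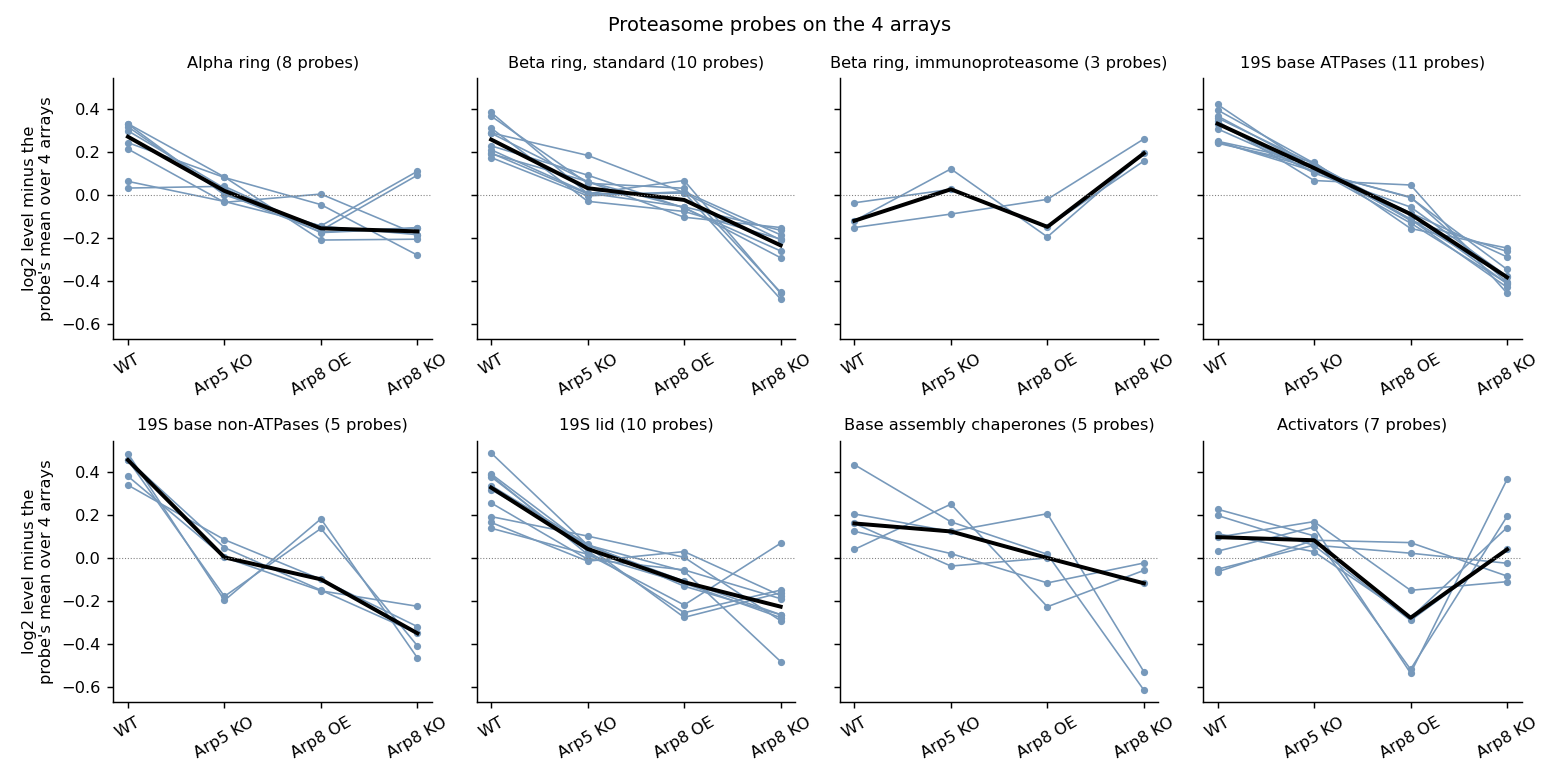
Log2 level of each proteasome probe minus its own mean over the 4 arrays, by array and subcomplex (thin lines, 1 probe each; thick line, median). The median line goes down from WT to Arp8 KO in the alpha ring (where both PSMA6 probes do not), the standard beta ring, the base, the lid and the base chaperones, and goes up in the immunoproteasome subunits. In the activators the median of the probe differences between Arp8 KO and WT, which is not the drawn line, is -0.02.

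The standard subunits of core and cap were lower than WT in every other culture. They were not alone in this: the activators had a median of -0.39 in Arp8 OE. The base chaperones had smaller shifts, with medians of -0.10 in Arp5 KO, -0.24 in Arp8 OE and -0.28 in Arp8 KO. The alpha ring, the standard beta ring, the base and the lid had, in sum, 44 measured probes for 31 genes. Their median difference from WT was -0.25 in Arp5 KO, -0.35 in Arp8 OE and -0.55 in Arp8 KO, with 43, 44 and 42 of 44 probes below 0, against 49.3%, 50% and 47.3% of all tested probes. By gene mean, 13 of these 31 genes were lower past 1.5-fold in Arp8 KO, 1 in Arp5 KO and 1 in Arp8 OE. The only shares at hand are those of all tested probes, at 11.2%, 4.69% and 5.67%. The base of the cap was further below WT in Arp8 KO than the core, while the lid lay close to the standard beta ring. The medians there were -0.81 for the non-ATPase base subunits, -0.71 for the ATPases and -0.54 for the lid, beside -0.50 for the standard beta ring and -0.46 for the alpha ring. Past 1.5-fold in Arp8 KO were 5 of 5 non-ATPase base probes, 8 of 11 ATPase probes, 3 of 10 lid probes, 3 of 10 standard beta probes and 0 of 8 alpha probes, against 11.2% of all tested probes. These differences between subcomplexes were not tested, since probes of 1 array are not replicates.

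**Figure D3:**
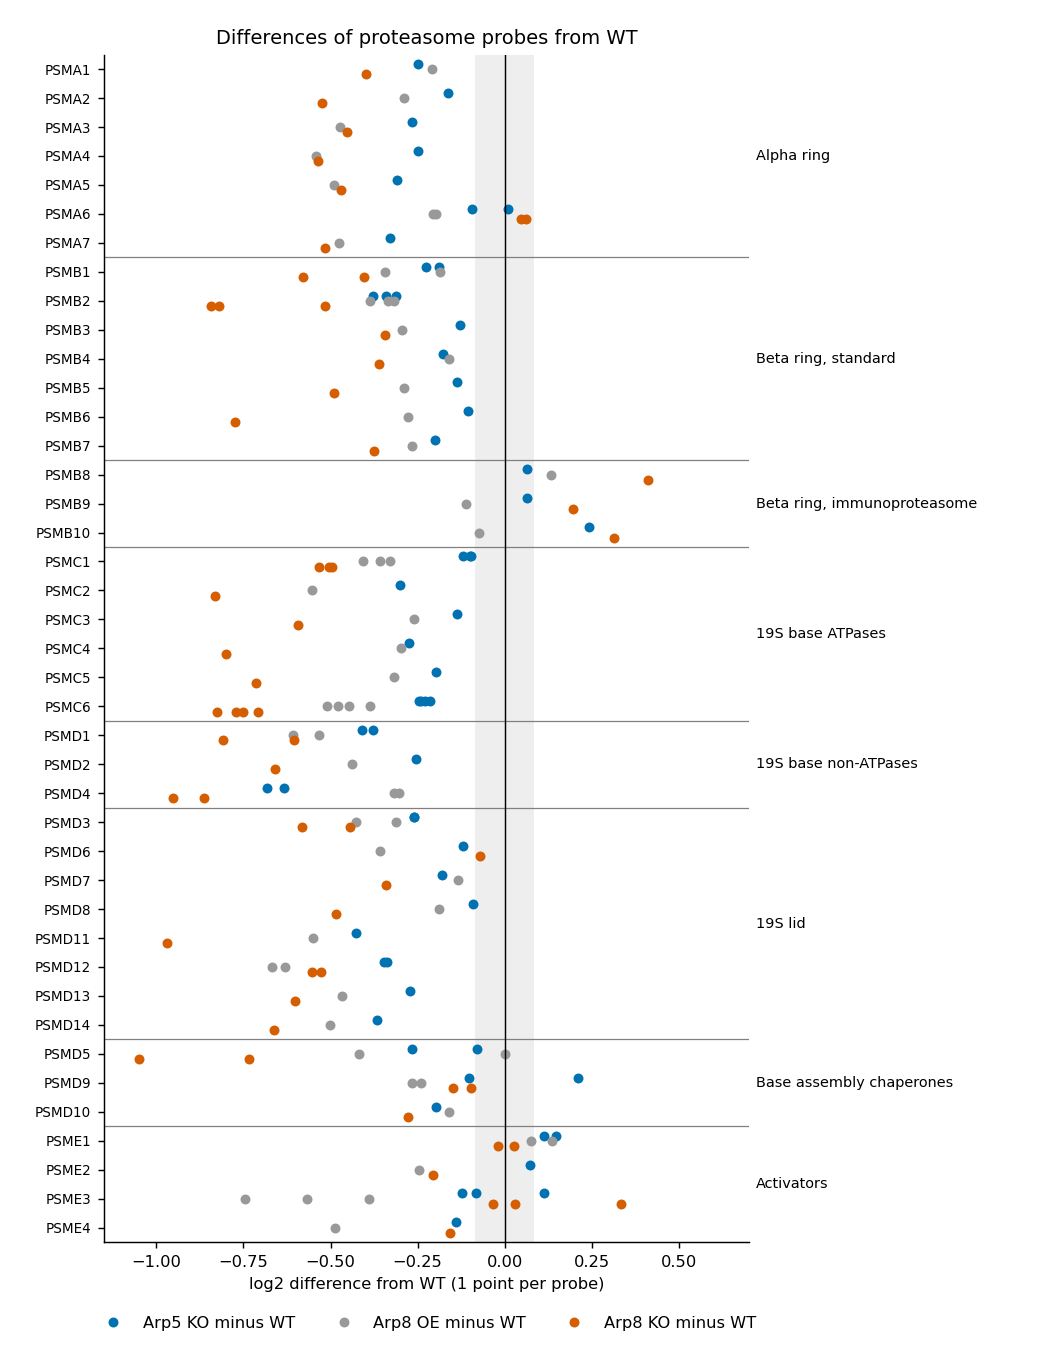
Log2 difference from WT of each measured proteasome probe (1 point per probe and culture), by gene and subcomplex; the grey band is 1 technical SD (0.082) on either side of 0. Arp8 KO points lie furthest left for most standard core and cap genes, and right of 0 for PSMB8, PSMB9 and PSMB10.

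In the alpha ring, whose subunits form the gate of the core, 6 of 7 measured genes were below WT in Arp8 KO, none past 1.5-fold. The lowest was PSMA4, at log2 levels of 4.71 in WT, 4.47 in Arp5 KO, 4.17 in Arp8 OE and 4.18 in Arp8 KO. WT was the highest array, and Arp8 OE and Arp8 KO were alike. PSMA6 was the exception. Its probes read 6.62 and 7.02 in WT, 6.53 and 7.03 in Arp5 KO, 6.42 and 6.82 in Arp8 OE, and 6.67 and 7.08 in Arp8 KO. Arp8 KO lay 0.05 and 0.06 above WT, within 1 technical SD, and 1 of these turned to 0.00 under cyclic loess normalization, while Arp8 OE lay -0.21 and -0.20 from WT. PSMA1, PSMA2, PSMA3, PSMA5 and PSMA7 differed from WT by -0.40 to -0.52 in Arp8 KO, by -0.21 to -0.49 in Arp8 OE and by -0.16 to -0.33 in Arp5 KO.

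In the standard beta ring all 10 probes of 7 genes were below WT in every other culture. PSMB6, the subunit of the caspase-like site, stood at 6.12 in WT, 6.02 in Arp5 KO, 5.85 in Arp8 OE and 5.35 in Arp8 KO. Its difference of -0.77 in Arp8 KO, 1.71 times lower than WT, was the lowest of the ring by gene mean, and the Arp5 KO and WT arrays differed by only -0.10. PSMB2, a structural subunit, had 3 probes. The brightest read 4.69 in WT, 4.31 in Arp5 KO, 4.37 in Arp8 OE and 3.84 in Arp8 KO. Another read 4.20, 3.89, 3.87 and 3.38 in the same order, and the dimmest -1.74, -2.08, -2.13 and -2.26. In Arp8 KO these gave differences of -0.84, -0.82 and -0.52, so WT was the highest and Arp8 KO the lowest array on each, with the dim probe showing the smallest gap. The smallest difference of the ring in Arp8 KO was that of PSMB3, also structural, at 4.08 in WT, 3.95 in Arp5 KO, 3.78 in Arp8 OE and 3.73 in Arp8 KO. PSMB1 and PSMB4 differed from WT by -0.36 to -0.58 in Arp8 KO.

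The immunoproteasome subunits went the other way in Arp8 KO. PSMB8, which takes the chymotrypsin-like position of PSMB5, stood at 3.08 in WT, 3.14 in Arp5 KO, 3.21 in Arp8 OE and 3.49 in Arp8 KO. PSMB9, which takes the place of PSMB6, stood at 4.36, 4.42, 4.25 and 4.55 in the same order. PSMB10, which takes the trypsin-like position of PSMB7, stood at 4.41, 4.65, 4.34 and 4.73. For each of the 3, Arp8 KO was the highest array, by 0.41, 0.19 and 0.31 over WT. None of these passed 1.5-fold, and all 3 stayed above WT under every scaling tried. Arp8 KO was the highest array for 32.7% of all tested probes. The lower and upper quartiles of all tested probes in Arp8 KO were -0.27 and 0.28. PSMB9 lay between these quartiles, and PSMB10 and PSMB8 lay above the upper. In Arp5 KO the differences were 0.06, 0.06 and 0.24, and in Arp8 OE 0.13, -0.11 and -0.07, so that all but PSMB10 in Arp5 KO lay within 0.13 of WT there.

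Their standard counterparts were lower on the same array. PSMB5 stood at 5.16 in WT, 5.02 in Arp5 KO, 4.87 in Arp8 OE and 4.67 in Arp8 KO, and PSMB7 at 5.93, 5.72, 5.66 and 5.55. In Arp8 KO the standard and the immunoproteasome subunit of each position therefore differed in sign: -0.77 for PSMB6 and 0.19 for PSMB9, -0.37 for PSMB7 and 0.31 for PSMB10, -0.49 for PSMB5 and 0.41 for PSMB8. Each gene here has 1 probe on 1 array per genotype, so no error between cultures stands behind these contrasts.

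**Figure D4:**
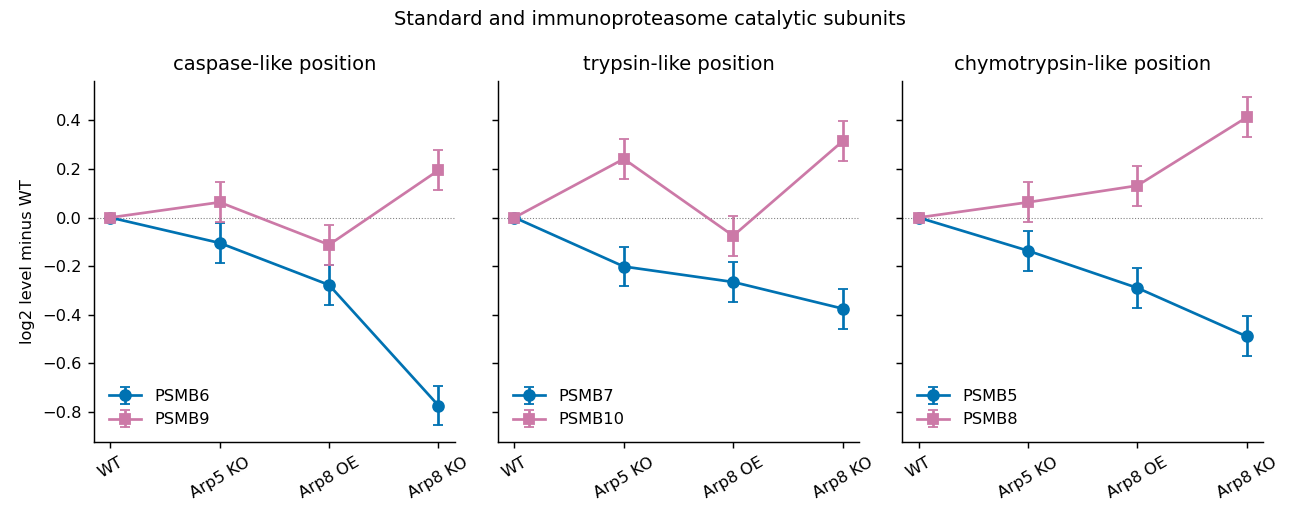
Log2 level minus WT of the standard (circles) and immunoproteasome (squares) subunit of each catalytic position, by array; bars are 1 technical SD (0.082), not a spread between cultures. In Arp8 KO the standard subunits lie between -0.77 and -0.37 and the immunoproteasome subunits between 0.19 and 0.41.

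The promoters of these genes were searched for 4 short motifs, on both strands, in the RefSeq window of GRCh38.p14 from 250 bases before to 50 bases after the start site. A window was found for 36 of the 41 measured genes. The interferon-stimulated response element, searched as a pair of GAAA words with any pair of bases between them, was in 6 of the 36 (16.7%), against 4.38% of 27305 genes with a window. The 6 were PSMB8, PSMB10, PSME1, PSME2, PSMA4 and PSMB4. They include both kinds of behaviour in Arp8 KO, with differences of 0.41 for PSMB8 and 0.31 for PSMB10 and of -0.54 for PSMA4 and -0.36 for PSMB4. PSMB9 held no match in its window. The matches of the immunoproteasome subunits and of the subunits of the PA28 activator are shown, 5′ to 3′ on the strand of the gene, with the motif or its reverse complement in capitals.
PSMB8, chr6:32844030-32844063, minus strand: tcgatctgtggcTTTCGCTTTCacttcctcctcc
PSMB10, chr16:67936850-67936883, minus strand: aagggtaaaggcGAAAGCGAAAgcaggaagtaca
PSME1, chr14:24136187-24136220, plus strand: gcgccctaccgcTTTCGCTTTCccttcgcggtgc
PSME2, chr14:24146617-24146650, minus strand: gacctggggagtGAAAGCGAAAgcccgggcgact
In all 4 the pair of variable bases in the middle of the motif was the same, read on the motif's own strand. A match is a description of these letters and not a site shown to be bound.

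In the base of the cap, the 6 ATPases of the unfolding ring were lower as a set. All 11 probes were below WT on every other array, and 5 of 6 genes were lower past 1.5-fold in Arp8 KO by gene mean. Of all tested probes, 11.2% were, and no share over all genes was computed. PSMC2 stood at 4.57 in WT, 4.27 in Arp5 KO, 4.02 in Arp8 OE and 3.74 in Arp8 KO, a difference of -0.83 or 1.78 times lower. PSMC4 stood at 3.78, 3.51, 3.48 and 2.98 in the same order. PSMC5 stood at 2.94, 2.74, 2.62 and 2.22. All 3 had WT as the highest array and Arp8 KO as the lowest. PSMC3 stood at 4.75, 4.61, 4.49 and 4.15, a difference of -0.59 in Arp8 KO, just past 1.5-fold. The 4 probes of PSMC6 read 2.69 to 4.54 in WT, 2.44 to 4.30 in Arp5 KO, 2.18 to 4.06 in Arp8 OE and 1.86 to 3.78 in Arp8 KO, with differences from WT of -0.71 to -0.82 in Arp8 KO. PSMC1 was nearest to WT, its brightest probe reading 5.62 in WT, 5.50 in Arp5 KO, 5.29 in Arp8 OE and 5.09 in Arp8 KO. Its 3 probes gave -0.50 to -0.53 in Arp8 KO, -0.33 to -0.41 in Arp8 OE and -0.10 to -0.12 in Arp5 KO. Arp8 KO also lay below Arp5 KO on all 11 ATPase probes, by -0.40 to -0.58.

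Among the non-ATPase subunits of the base, PSMD4, a ubiquitin receptor, was the single proteasome gene past 1.5-fold in Arp5 KO. Its first probe read 4.74 in WT, 4.06 in Arp5 KO, 4.44 in Arp8 OE and 3.79 in Arp8 KO, and its second 4.86, 4.22, 4.54 and 3.99. On both probes the 2 knockouts lay below Arp8 OE, which was not the usual order. The differences were -0.30 and -0.32 in Arp8 OE, -0.68 and -0.63 in Arp5 KO, and -0.95 and -0.86 in Arp8 KO. PSMD1, a scaffold of the base, read 5.20 in WT, 4.82 in Arp5 KO, 4.67 in Arp8 OE and 4.59 in Arp8 KO on 1 probe and 2.52, 2.11, 1.91 and 1.71 on the other. PSMD2, the other scaffold, read 4.15, 3.90, 3.71 and 3.49. For both scaffolds WT was the highest array, Arp8 KO the lowest and Arp8 OE between Arp5 KO and Arp8 KO. A bright spot here means a spot whose level on 1 array was more than 1 log2 unit above its level on every other array. The probes of PSMD1 and PSMD2 each lie next to such a bright spot, as do, in all, 9 of the 60 proteasome probes and 12.7% of all probes. The others are 1 probe each of PSMA1, PSMC1, PSMD5, PSMD6, PSMD12 and PSME1. Without such probes the group is left with PSMD4, and its median in Arp5 KO moves from -0.41 to -0.66.

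In the lid, all 10 probes of 8 genes were below WT in every other culture. PSMD11, a structural subunit, stood at 3.48 in WT, 3.05 in Arp5 KO, 2.93 in Arp8 OE and 2.50 in Arp8 KO. Its difference of -0.97, 1.96 times lower, was the lowest gene mean of all 41 genes in Arp8 KO. PSMD14, the deubiquitinase that removes ubiquitin chains at the entrance, stood at 5.12, 4.75, 4.62 and 4.46 in the same order. PSMD13 stood at 3.66, 3.38, 3.19 and 3.06. These 3 genes were past 1.5-fold in Arp8 KO, at -0.97, -0.66 and -0.60, with Arp8 KO the lowest array. PSMD12 had another order, with Arp8 OE lowest. It read 2.54 in WT, 2.2 in Arp5 KO, 1.91 in Arp8 OE and 2.01 in Arp8 KO on 1 probe, and 2.96, 2.62, 2.30 and 2.41 on the other. By gene mean PSMD12 was the single gene past 1.5-fold in Arp8 OE, with its probes at -0.63 and -0.67. PSMD6 was nearest to WT in Arp8 KO, at 3.63 in WT, 3.51 in Arp5 KO, 3.27 in Arp8 OE and 3.56 in Arp8 KO, and its difference of -0.07 was within 1 technical SD. PSMD3, PSMD7 and PSMD8 differed from WT by -0.34 to -0.58 in Arp8 KO.

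The antioxidant response element core, searched as TGACNNNGC, is the motif of the NRF factors that regulate proteasome genes. It was in 13 of the 36 windows (36.1%), against 16.1% of all genes with a window. The median of these 13 genes in Arp8 KO was -0.51, beside -0.49 for the measured genes whose window held no match. The same medians were -0.17 and -0.18 in Arp5 KO and -0.30 and -0.35 in Arp8 OE. Genes with and without the motif both mix subcomplexes, and the part of the motif in the differences was not tested. Matches upstream of the start site in standard subunits of the ring, the base and the lid are shown, on the strand of the gene, with the motif or its reverse complement in capitals.
PSMA4, chr15:78540648-78540680, plus strand: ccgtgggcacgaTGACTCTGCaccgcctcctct
PSMB3, chr17:38752625-38752657, plus strand: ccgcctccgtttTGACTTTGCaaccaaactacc
PSMC5, chr17:63827652-63827684, plus strand: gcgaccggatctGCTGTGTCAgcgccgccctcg
PSMD3, chr17:39980758-39980790, plus strand: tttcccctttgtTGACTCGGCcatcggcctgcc
PSMD12, chr17:67366722-67366754, minus strand: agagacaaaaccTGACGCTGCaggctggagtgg
In Arp8 KO these 5 genes differed from WT by -0.54 for PSMA4, -0.34 for PSMB3, -0.71 for PSMC5, -0.45 and -0.58 for the probes of PSMD3, and -0.53 and -0.55 for those of PSMD12. The rest of the 13 genes did not all go this way. By gene mean they differed in Arp8 KO by -0.89 for PSMD5, -0.80 for PSMC4, -0.71 for PSMD1 and -0.21 for PSME2. The others were PSME4 at -0.16, PSMD9 at -0.12, PSME1 at 0.00 and PSMB9 at 0.19. CCAAT, the motif of NF-Y, was in 18 of the 36 windows (50%), against 39.7% of all genes. TGACTCA, the AP-1 motif, was in 3 (8.33%, PSMC5, PSMD2 and PSMD9), against 6.05%, and 0 of the 3 matches overlapped a TGACNNNGC match. The windows of PSMA7, PSMB1, PSMB6, PSMB7 and PSMD4 were not analysed here.

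The chaperones that assemble the base leave the finished particle and behaved unevenly. PSMD5, which holds ATPases during assembly, had 2 dim probes. They read -3.65 and -0.87 in WT, -3.92 and -0.95 in Arp5 KO, -4.07 and -0.87 in Arp8 OE, and -4.70 and -1.61 in Arp8 KO. Arp8 KO was the lowest array on both, at -1.05 and -0.73 from WT. The first of these was the only proteasome probe past 2-fold, at 2.07 times lower, and it lies next to a bright spot. Under background correction by normexp the PSMD5 probes differed from WT by -0.37 and -0.51 in Arp8 KO, and no proteasome probe was past 2-fold. PSMD9 was nearest to WT in Arp8 KO. It read 4.34 in WT, 4.23 in Arp5 KO, 4.10 in Arp8 OE and 4.19 in Arp8 KO on 1 probe and -4.01, -3.80, -4.28 and -4.11 on a dim one. The probes disagreed in sign in Arp5 KO, at -0.10 and 0.21, the widest gap between probes of a gene in that comparison. PSMD10 differed from WT by -0.20 in Arp5 KO, -0.16 in Arp8 OE and -0.28 in Arp8 KO.

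The activators did not follow the cap in Arp8 KO. PSME1 and PSME2 form the PA28 ring that is paired with immunoproteasomes. PSME1 read 6.50 in WT, 6.61 in Arp5 KO, 6.57 in Arp8 OE and 6.52 in Arp8 KO on 1 probe and 1.52, 1.66, 1.65 and 1.5 on the other. All arrays of PSME1 lay within 0.15 of WT. PSME2 stood at 6.94, 7.01, 6.69 and 6.73 in the same order, so that Arp8 OE and Arp8 KO were both lower than WT, by -0.25 and -0.21. PSME3, the nuclear PA28 gamma, had 3 probes and was lowest in Arp8 OE on all of them. They read 1.31, 0.35 and -0.87 in WT, 1.23, 0.46 and -1.0 in Arp5 KO, 0.92, -0.22 and -1.62 in Arp8 OE, and 1.34, 0.68 and -0.91 in Arp8 KO. The differences in Arp8 OE were -0.39, -0.57 and -0.74, of which the last was past 1.5-fold, and those in Arp8 KO were 0.03, 0.33 and -0.03. PSME4, the PA200 activator, stood at 1.42 in WT, 1.28 in Arp5 KO, 0.94 in Arp8 OE and 1.27 in Arp8 KO, again lowest in Arp8 OE. Over the 7 activator probes the median difference from WT was 0.07 in Arp5 KO, -0.39 in Arp8 OE and -0.02 in Arp8 KO, the last turning to 0.06 under normexp.

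Where a gene had several probes they mostly gave like values. In 13 genes with 31 measured probes, the median range between probes of a gene was 0.03 in Arp5 KO, 0.07 in Arp8 OE and 0.12 in Arp8 KO. All probes of a gene had the same sign in 10, 12 and 11 of the 13 genes. The widest ranges were 0.31 for PSMD9 in Arp5 KO, 0.42 for PSMD5 in Arp8 OE and 0.37 for PSME3 in Arp8 KO. Probes of 1 gene share the RNA of 1 culture, so they measure the agreement of probes and not of cultures.

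Proteins that work with the proteasome, but fall outside the name rule, were followed in lists. Of 15 proteasome partners, 13 had a probe, and their 21 measured probes had a median difference from WT of -0.24 in Arp5 KO, -0.33 in Arp8 OE and -0.39 in Arp8 KO. Some genes of the list had several probes, so the counts are of probes and not of genes. Those of ZFAND5 were all below WT in Arp8 KO, by -0.08 to -0.54. In Arp8 KO 17 of the 21 probes were below 0, against 47.3% of all tested probes, and 1 was lower past 2-fold, close to the background of 4.35%. That was PAAF1, which binds the ATPases of the free cap, at 1.51 in WT, 1.02 in Arp5 KO, 1.25 in Arp8 OE and 0.42 in Arp8 KO. ADRM1, the ubiquitin receptor of the cap, and POMP, the maturation factor of the core, were below WT on every array, by -0.48 and -0.47 in Arp8 KO. The core assembly chaperones PSMG1 and PSMG3 were above WT in Arp8 KO, by 0.18 and 0.39, and the PSMG1 probe lies next to a bright spot. The probes of PSMG2 differed from WT by -0.07 and 0.06 there.

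Genes for ubiquitin, shuttle factors and the VCP unfoldase had 35 measured probes in 16 of 17 genes, with medians of -0.08 in Arp5 KO, -0.10 in Arp8 OE and -0.16 in Arp8 KO. In Arp8 KO 14 of 35 were lower past 1.5-fold, against 11.2% of all tested probes, and 0 were higher (10%). Past 2-fold lower were 0 of 35 in Arp5 KO (2.01% of all tested probes), 2 in Arp8 OE (2.15%) and 4 in Arp8 KO (4.35%). RAD23B, a shuttle that brings ubiquitinated substrates to the cap, read 3.45 in WT, 3.40 in Arp5 KO, 2.14 in Arp8 OE and 2.31 in Arp8 KO on its brightest probe. On that probe it was thus 2.48 times lower in Arp8 OE and 2.21 times lower in Arp8 KO, with Arp5 KO at the level of WT. Its other probes differed from WT by -1.34 and -1.0 in Arp8 OE and by -0.95 and -1.16 in Arp8 KO. In Arp5 KO they differed by -0.06 and -0.46, so the probes disagreed there. NSFL1C, a cofactor of VCP, read 2.14 in WT, 1.63 in Arp5 KO, 1.62 in Arp8 OE and 0.94 in Arp8 KO. Another NSFL1C probe gave a like difference of -1.21 in Arp8 KO, but the remaining, dim probe gave -0.16, so the probes of the gene disagreed. VCP itself was -0.59 to -0.71 from WT in Arp8 KO on 3 probes.

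**Figure D5:**
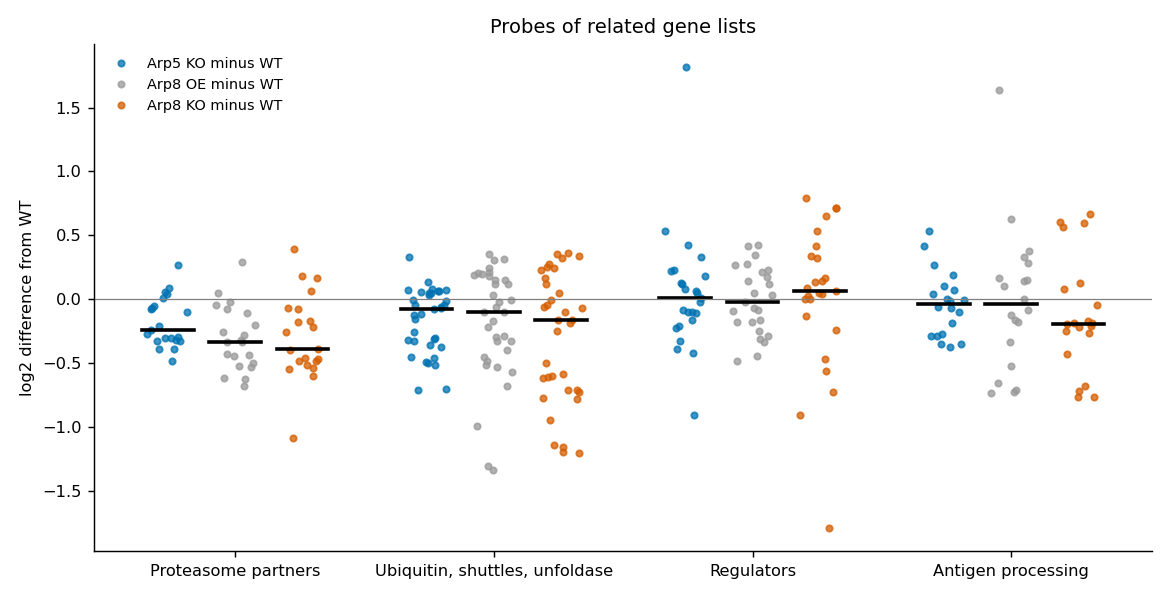
Log2 difference from WT of each measured probe in 4 lists of related genes (1 point per probe; bars are medians), for Arp5 KO, Arp8 OE and Arp8 KO. The proteasome partners have medians of -0.24, -0.33 and -0.39. The medians of the regulators lie near 0, with points spread to either side.

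Regulators of proteasome genes, 14 of 15 with a probe and 25 probes measured, had medians near 0, at 0.01 in Arp5 KO, -0.02 in Arp8 OE and 0.07 in Arp8 KO. Single probes were spread to both sides, from -1.79 to 0.79 in Arp8 KO. Of the 25, 3 were lower there past 1.5-fold (11.2% of all tested probes) and 4 were higher (10%). NFE2L1, the main transcription factor for proteasome subunits when the protease is inhibited, read 2.52 in WT, 2.49 in Arp5 KO, 2.57 in Arp8 OE and 2.65 in Arp8 KO on its brightest probe. Another gave a higher value in Arp8 KO, by 0.65, and a dim one next to a bright spot gave 0.00. NFE2L2, its relative in the oxidative stress response, stood at 1.21, 1.04, 0.95 and 1.07 in the same order, which is lower than WT by a small margin on each array. MAFF, a small partner of both factors, stood at -3.37 in WT, -4.28 in Arp5 KO and -3.82 in Arp8 OE and was not well above background in Arp8 KO, where it was at least 3.46-fold lower than in WT. A dim BACH1 probe next to a bright spot was 1.82 above WT in Arp5 KO, while the other BACH1 probe differed by 0.05.

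Antigen processing genes that work with immunoproteasomes had 20 measured probes in 12 genes, with medians of -0.04 in Arp5 KO, -0.04 in Arp8 OE and -0.19 in Arp8 KO. TAP1, the peptide transporter gene that neighbours PSMB9, was 0.19, 0.16 and 0.56 above WT in Arp5 KO, Arp8 OE and Arp8 KO. B2M, the light chain of MHC class I, was 0.10, 0.28 and 0.61 above WT. PDIA3, an endoplasmic reticulum enzyme of peptide loading, was lower in Arp8 KO on 3 probes, by -0.68 to -0.77. Past 2-fold was a single TAPBP probe, higher in Arp8 OE (2.96% of all tested probes were), at -2.46 in WT, -2.53 in Arp5 KO, -0.83 in Arp8 OE and -2.68 in Arp8 KO, next to a bright spot, while the other TAPBP probes differed by 0.33 and 0.15 in Arp8 OE. In Arp8 KO 14 of 20 probes were below 0 (47.3% of all tested probes). Past 1.5-fold, 4 were lower (11.2%) and 3 higher (10%). ERAP1 and CALR were lower, by -0.72 and -0.43, and the probes of NLRC5 differed by 0.67, 0.59 and -0.17. The median of the list in Arp8 KO was thus below 0, where PSMB8, PSMB9 and PSMB10 were above it. TAP1 and B2M were above it too, unlike most probes of the list.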

How the data were processed

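Per the labels, 1 Cy3-labelled RNA sample of each genotype was hybridised to a one-colour Agilent array. The authors deposited Agilent Feature Extraction 10.10.1.1 files, whose processed signal intensity is background-corrected, and a value table that equals that intensity times a constant of 1.99 to 2.29 per array. Per the file headers the array design used build hg19.

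Control spots and 69 to 76 outlier spots per array were left out, no spot was saturated, replicate spots were averaged, and log2 intensity was centred on the 75th percentile of each array (647.4 to 739.6). A probe was tested where at least 50% of its spots were well above background on 1 of the arrays compared (55.8% to 57.4% of probes per array), and dim values were raised to the lowest level well above background. Accessions were matched to RefSeq symbols (GRCh38.p14) for 66.4% of probes, with Python 3.11.15 and pandas 2.3.3.

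The members and lists were chosen with earlier results of these data known. Values on every array were given for members past 1.5-fold against WT, for the catalytic subunits and activators, and for the extremes of each subcomplex. Genes of the 4 related lists were named past 2-fold, together with NFE2L1, NFE2L2, ACTR5, ACTR8 and HMOX1. ADRM1, POMP, PSMG1, PSMG2, PSMG3, ZFAND5, VCP, TAP1, B2M, PDIA3, ERAP1, CALR and NLRC5 were named after their values were seen. The same holds for the cell type markers CD22, VPREB1, CD79A and DNTT, and for the second probes of BACH1 and TAPBP. Alternatives were median scaling, quantile and cyclic loess normalization, normexp with offset 50 (limma 3.58.1, on the median signal), the value table, other filters, probe means and Arp8 OE as reference. The analysis was tested on simulated data. The number of arrays limits the precision.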

Additional observations from a re-analysis of the deposited data

How the results depend on the processing

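No paired analysis was possible because each genotype had 1 array and all labels give the same replicate number, and leaving out a replicate would leave a genotype with no array. Of the 988 summary values recomputed under an alternative (medians and counts of the proteasome probes and related lists), 920 kept within the technical SD of a difference or within 1.5 times the count, and 68 did not. Median scaling, quantile normalization, cyclic loess and the authors' value table gave none of the 68. The value table is the same intensity times a constant per array, which the centring removes. Its 104 values, all among the 920, therefore could not differ and say nothing on stability. Median scaling likewise shifts all probes of an array by the same amount. Values are log2 medians unless called counts, and the cause of each change was not tested, except where probes or genes were left out or averaged. Of the single-probe values, 145 of 1970 moved past the technical SD, 112 of them with Arp8 OE as the reference.

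With Arp8 OE as the reference, Arp5 KO had medians of 0.16 over all proteasome probes, 0.16 for the alpha ring, 0.0554 for the standard beta ring, 0.17 for the immunoproteasome subunits, 0.23 for the ATPases, 0.16 for the non-ATPase base, 0.15 for the lid, 0.14 for the base chaperones, 0.32 for the activators and 0.11 for the proteasome partners. The counts of proteasome probes were 10 below 0, 0 lower and 2 higher past 1.5-fold, and 1 antigen processing probe was lower and 2 ubiquitin and shuttle probes higher past 2-fold. Arp8 KO had medians of -0.16 over all proteasome probes, 0.012 for the alpha ring, -0.21 for the standard beta ring, -0.32 for the ATPases, -0.22 for the non-ATPase base, -0.15 for the lid, -0.12 for the base chaperones, 0.33 for the activators, 0.0308 for the partners and -0.0393 for antigen processing. Its counts were 3 lower and 2 higher past 1.5-fold and 0 lower past 2-fold among proteasome probes, and past 2-fold lower 0 partner, 0 ubiquitin and shuttle and 1 antigen processing probe. The signs for Arp5 KO thus turned in 8 of these medians, and those for Arp8 KO in the alpha ring, activators and partners.

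With probes averaged by gene, the counts of proteasome genes lower past 1.5-fold were 1 in Arp5 KO and 1 in Arp8 OE, and 0 were lower past 2-fold in Arp8 KO. The median of the alpha ring in Arp8 OE was -0.47, that of the non-ATPase base in Arp8 KO -0.71, that of the base chaperones between the knockouts -0.18 and that of antigen processing in Arp8 OE 0.0741. Past 2-fold, ubiquitin and shuttle genes had 1 lower in Arp8 KO, 1 lower in Arp8 OE and 0 between the knockouts, regulators 0 higher in Arp5 KO and 0 lower between the knockouts, and antigen processing 0 higher in Arp8 OE.

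Without probes next to a bright spot, 0 proteasome probes were lower past 2-fold in Arp8 KO and 2 past 1.5-fold in Arp8 OE. The alpha ring had -0.47 in Arp8 OE, the base chaperones -0.19 between the knockouts, and the non-ATPase base -0.31 in Arp8 OE, -0.66 in Arp5 KO and -0.91 in Arp8 KO. Past 2-fold there were 0 higher antigen processing probes in Arp8 OE, 0 higher regulators in Arp5 KO and 0 lower regulators between the knockouts.

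Under normexp, 0 proteasome probes were lower past 2-fold in Arp8 KO and 1 past 1.5-fold in Arp8 OE. The base chaperones had -0.11 between the knockouts and -0.0841 in Arp8 OE, the partners -0.29 in Arp8 KO, and antigen processing -0.0377 between the knockouts. Regulators past 2-fold were 0 higher in Arp5 KO, 0 lower in Arp8 KO and 0 lower between the knockouts. With no filter or floor, which moved the median of all probes in Arp8 OE to 0.11, the alpha ring had -0.47 in Arp8 OE, which includes the PSMA8 probe at background, 1 antigen processing probe was lower past 2-fold in Arp8 OE, and regulators lower past 2-fold were 2 between the knockouts and 1 in Arp8 OE. With probes required above background on every array compared, 0 regulators were lower past 2-fold in Arp8 KO.

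One array per genotype limits every statement above: the technical SD leaves out the spread between cultures. Both probes of PSMD5 were well above background on all 4 arrays, and both lost their 1.5-fold call in Arp8 KO under normexp.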
